A study of Mus musculus with 10 samples.

Results

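Most genes described here encode nuclear subunits of respiratory complexes II to V. They were taken as every symbol that begins with Uqcr, Cox4 to Cox8 or Atp5, together with Cyc1 and the 4 genes Sdha, Sdhb, Sdhc and Sdhd. This rule also takes genes that are not such subunits, such as Cox5b-ps, whose symbol has a pseudogene suffix, and Cox7a2l, a supercomplex factor. The members are 50 of the 21098 genes with a row in the table, with 4 genes for complex II, 9 for complex III, 19 for complex IV and 18 for complex V. Gastrocnemius muscle of diet-induced obese (DIO) mice was sequenced as polyA RNA in 5 libraries per group, each from 1 mouse. All mice were wild-type C57BL/6J males that received the high-fat diet D12492i from 9 weeks of age for 9 weeks before dosing. The ASO group received weekly subcutaneous injections of 10 mg/kg of the anti-miR-22 antisense oligonucleotide RES-010 for 14 weeks, and the CTRL group received saline on the same schedule. The age stated for the mice is 30 weeks, which is less than these periods give when added. No lean or untreated mice and no other oligonucleotide are part of this comparison. In the body weights that the paper lists for its obese mice, the ASO group was heavier on average than CTRL when dosing began, and the ranges overlapped. Which library came from which of the weighed mice is not stated, and the part of starting weight in the results was not tested.

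Complex II (succinate dehydrogenase) oxidizes succinate in the citric acid cycle and passes the electrons to coenzyme Q. Complex III (the cytochrome bc1 complex) hands electrons from coenzyme Q to cytochrome c, and complex IV (cytochrome c oxidase) hands them from cytochrome c to oxygen. Complex V (ATP synthase) uses the proton gradient to make ATP. All subunits of complex II are encoded in the nucleus, while complexes III, IV and V also hold mitochondrially encoded subunits, which the rule does not take. Several complex IV subunits have isoforms for striated muscle or testis. In bulk RNA such as this, fewer cells of a type and less RNA per cell cannot be told apart.

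The ASO is directed against miR-22, whose mature sequence is shown to define the site looked for in the members. The sequence is RefSeq's mmu-miR-22-3p, read on GRCm38.p6 at chr11:75463772-75463793, plus strand, and the capitals mark the seed, bases 2 to 8.

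mmu-miR-22-3p: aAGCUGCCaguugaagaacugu

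The heptamer complementary to this seed, GGCAGCT, was sought in the 3′UTR of each gene's canonical GENCODE transcript, on the transcript's strand. It occurred in 2 of 50 members (4.0%), tested or not, and in 1387 of 7771 tested genes with a 3′UTR (17.8%). Of the 31 tested members, 1 had it. The members' 3′UTRs are short, with a median of 260 bp and a range of 18 to 2967 bp, and length was not matched in this comparison. The 2 sites are shown because they are all the matches among the members, with the heptamer in capitals. The Uqcr11 site lies in the 3′UTR on GRCm39 at chr10:80237340-80237346, minus strand, and the Atp5pf site lies in the 3′UTR at chr16:84623027-84623033, minus strand.

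Uqcr11: actgatttccaGGCAGCTaggtggagggt

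Atp5pf: agcacttagacGGCAGCTtacaaccatct

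Neither site lies in a counted segment. Uqcr11 was one of the genes that rose with the ASO, and Atp5pf had 0 counts in all libraries.

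The values are counts of read pairs on the last 500 bp or less of annotated transcripts, summed over the segments of each gene. Libraries held 2239186 to 2632560 counts in the ASO group and 1606909 to 2116720 in CTRL, so all ASO libraries were deeper. Libraries are named below by group and replicate number, and these numbers do not pair the mice. Levels are given as CPM, the counts divided by the scaled library size and set to a common total. CTRL 3 stood apart with 13760 CPM summed over 9 adipocyte markers, which have no marker at 0, against 863 to 2389 CPM in the other CTRL libraries and 733 to 3764 CPM in the ASO libraries. CTRL 3, 4 and 5 held transcripts of maturing sperm cells, such as Tnp1 with 28, 130 and 581 counts, against at most 1 in any other library. Over 9 spermatid markers, of which Akap4 and Prm1 are at 0, the sums were 55.3, 240 and 1048 CPM in CTRL 3, 4 and 5, against 16.0 to 39.1 CPM elsewhere. ASO 4 had the highest sums of slow muscle markers (6126 CPM, other libraries 54.8 to 2030, Tnnt1 at 0) and of Schwann cell markers (623 CPM, other libraries 43.5 to 165). The spermatid and Schwann lists were chosen after values were seen. The tissue label was met by the sum of 12 fast muscle markers, with 105000 to 171800 CPM in the ASO libraries and 50800 to 101200 CPM in CTRL. Of them, Mylpf and Tnnt3 are at 0, and Myh1, Myh2, Myh4 and Tnni2 had at most 9 counts in any library. Most of the sum came from Acta1 and Ckm, with means of 59140 and 36670 CPM with the ASO and of 39780 and 19250 CPM in CTRL. Of the 6 tested fast muscle markers, 4 rose and none fell. Over all tested genes, 11.8% were higher and 17.4% lower. The 6 tested slow muscle markers all had positive log2 fold changes, and of them only Myl6b passed (1.72, edgeR adjusted p = 0.0367). Myl6b had 461 counts in ASO 4, 60 to 90 in the other ASO libraries and 19 to 52 in CTRL. Over 8 macrophage markers, of which Adgre1 and Cd163 are at 0, the sums were 41.5 to 285 CPM in the ASO libraries, 1006 CPM in CTRL 3 and 160 to 386 CPM in the other CTRL libraries. Of the 6 tested, C1qc (−1.61, edgeR adjusted p = 0.0461) and Mrc1 (−1.51, adjusted p = 0.0358) fell and none rose. The part of these other cells in the results below was not tested.

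A total of 31 members had enough counts to be tested, 10 had no count in any library, and 9 had few counts. The 10 at 0 are Uqcrh, Cox4i2, Cox7a1, Atp5f1c, Atp5if1, Atp5mc3, Atp5me, Atp5mj, Atp5pd and Atp5pf. None of their segments has more than 48 bases that no other segment shares, so a 0 does not show that the gene is silent. The 9 with few counts, of at most 22 in any library, are Uqcrq, Cox6b1, Cox6b2, Cox6c, Cox7b2, Cox7c, Cox8c, Atp5mc2 and Atp5mg.

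Of the 31 tested members, 9 were higher with the ASO (29.0%) and 2 were lower (6.45%) at an edgeR adjusted p-value under 0.05. Over all 7813 tested genes, 11.8% were higher and 17.4% were lower. The members' median log2 fold change was 0.11, against −0.03 over all tested genes. All 5 ASO libraries were above all 5 CTRL libraries in 2 members (7.97% of all tested genes) and below them in 2 members (13.4% of all tested genes). The 2 members above are Uqcrb and Cox5b-ps, and the 2 below are Sdhd and Cox7a2l. Of these calls, those of Sdhd and Uqcrb were kept when any single library was left out. Without CTRL 3, 4 and 5, the libraries with spermatid transcripts, Sdhd was lower and no member was higher (at an unadjusted edgeR p under 0.05, 1 was higher and 6 lower). In that fit 111 genes of the whole table were higher and 336 lower. The counts of higher members moved by over 1.5 times without ASO 3 (2), ASO 5 (2), CTRL 2 (4), CTRL 3 (4), CTRL 4 (1) or CTRL 5 (2), and leaving out CTRL 1 gave 12.

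**Figure D1:**
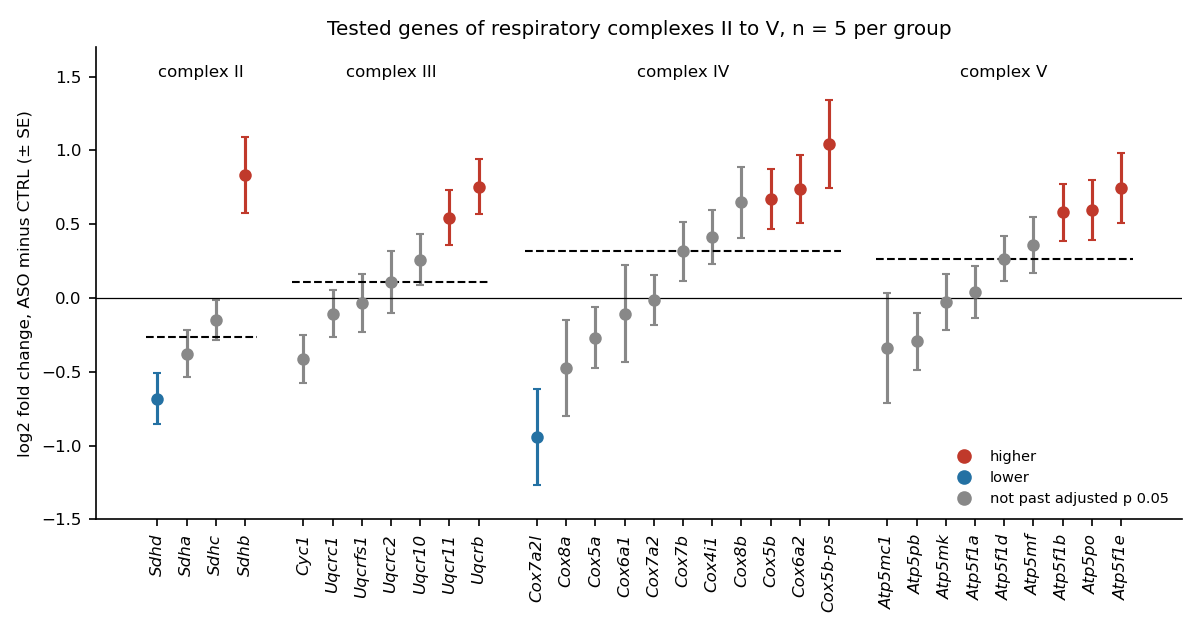
Log2 fold change (ASO minus CTRL, y axis) of the 31 tested genes of complexes II to V, grouped by complex on the x axis, with points for edgeR estimates, bars for standard errors and dashed lines for the median of each complex, n = 5 libraries per group. The 9 higher genes lie between 0.54 and 1.04, the 2 lower genes are Sdhd at −0.68 and Cox7a2l at −0.94, and genes without a call lie on both sides of 0 in each of complexes III, IV and V.

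The 4 subunits of complex II did not move in 1 direction. Sdhd, which with Sdhc anchors the complex in the inner membrane, fell, and Sdhb, the iron-sulfur subunit, rose. The median log2 fold change over the 4 genes was −0.26. Sdhd had 789, 854, 612, 869 and 699 CPM in ASO 1 to 5 and 1613, 1277, 902, 1193 and 1146 CPM in CTRL 1 to 5. Every ASO library was below every CTRL library. The estimated log2 change was −0.68 ± 0.17 (SE, n = 5 per group), 0.624-fold, with an edgeR adjusted p of 0.0106. Sdhd was counted on 1 segment of 500 bp that ends 15 bp from the annotated 3′ end, in the 3′UTR on GRCm39 at chr9:50507657-50508156, and it stayed below an adjusted p of 0.05 in all 24 alternative fits, with log2 fold changes of −0.96 to −0.56.

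Sdhb had 568, 452, 1039, 747 and 866 CPM in ASO 1 to 5 and 633, 388, 277, 402 and 362 CPM in CTRL 1 to 5. The groups overlapped, since CTRL 1 was above ASO 1 and ASO 2. Its log2 fold change was 0.83 ± 0.26 (SE), 1.78-fold, with an edgeR adjusted p of 0.0273. The call was lost without ASO 3, ASO 5, CTRL 2, CTRL 3, CTRL 4 or CTRL 5 (log2 fold changes of 0.71 to 1.04 over all single omissions, adjusted p up to 0.0656), and with an offset for segment length the value was 0.26 (adjusted p = 0.288). Sdhb was counted on a segment of 91 bp. Sdha, the flavoprotein that binds succinate, had 1612, 1673, 1438, 1419 and 1488 CPM in ASO 1 to 5 and 2534, 2030, 1424, 2039 and 1878 CPM in CTRL 1 to 5. The groups overlapped only through CTRL 3, which was below 4 of the ASO libraries, and the log2 fold change of −0.38 ± 0.16 did not pass the test (edgeR adjusted p = 0.0920). Without CTRL 3 it was −0.48 and passed, with an adjusted p of 0.0240. Sdhc was at −0.15 ± 0.14 (adjusted p = 0.441).

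In complex III, Uqcrb and Uqcr11 rose, no member fell, and the median log2 fold change over 7 tested members was 0.11. Uqcrb encodes a small subunit that binds coenzyme Q on the matrix side, and Uqcr11 encodes a subunit of very small size. Uqcrb had 1122, 990, 1608, 989 and 1291 CPM in ASO 1 to 5 and 880, 814, 529, 682 and 652 CPM in CTRL 1 to 5. No CTRL library reached the lowest ASO library. The log2 fold change was 0.75 ± 0.18 (SE), 1.69-fold, with an edgeR adjusted p of 0.00937. With only segments near the canonical 3′ end in the table it was 0.47 (adjusted p = 0.0734), with the segment length offset 0.35 (adjusted p = 0.0839), and without CTRL 3, 4 and 5 it was 0.52 (adjusted p = 0.185).

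Uqcr11 had 1350, 1148, 1716, 1427 and 1636 CPM in ASO 1 to 5 and 1424, 1027, 727, 901 and 911 CPM in CTRL 1 to 5. CTRL 1 lay within the ASO range, and the other 4 CTRL libraries lay below all ASO libraries. The fitted log2 fold change was 0.54 ± 0.19 (edgeR adjusted p = 0.0462), and the call was kept only without ASO 2 or without CTRL 1 among the 10 single omissions, with values of 0.45 to 0.71 and an adjusted p of up to 0.108. Cyc1, the cytochrome c1 subunit that passes electrons to cytochrome c, had the highest mean count of complex III. Its levels were 2069, 1887, 1918, 2366 and 1766 CPM in ASO 1 to 5 and 3284, 2389, 1999, 2929 and 2722 CPM in CTRL 1 to 5. CTRL 3 alone lay within the ASO range. The log2 fold change of −0.41 ± 0.16 did not pass the test (edgeR adjusted p = 0.0722), and without CTRL 3 it was −0.50 and passed (adjusted p = 0.0256). The remaining tested members, the Rieske protein gene Uqcrfs1, the core protein genes Uqcrc1 and Uqcrc2 and the small subunit gene Uqcr10, lay between −0.11 and 0.26. Uqcrc2 is uncertain, because its counted segment lies within exons of Pdzd9 on the opposite strand and the strand setting of the counting is not given in the sources used here.

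Complex IV had 11 tested members, of which Cox6a2, Cox5b and Cox5b-ps rose, Cox7a2l fell, and the median log2 fold change was 0.32. Cox6a2 encodes the striated muscle isoform of subunit VIa, and Cox5b encodes a subunit on the matrix side of the enzyme. Cox6a2 had 2047, 2344, 3265, 3299 and 3460 CPM in ASO 1 to 5 and 2588, 1666, 1121, 1700 and 1558 CPM in CTRL 1 to 5. CTRL 1 was above ASO 1 and ASO 2, and the other CTRL libraries were below all ASO libraries. Expressed as log2, the change was 0.74 ± 0.23 (SE), 1.67-fold, with an edgeR adjusted p of 0.0282. It lost its call without ASO 3, ASO 5, CTRL 2, CTRL 4 or CTRL 5 (0.62 to 0.93 over all single omissions, adjusted p up to 0.0680), and 70 of its 294 counted bases overlap Itgad on the opposite strand.

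Cox5b had 2308, 2046, 3230, 2681 and 2887 CPM in ASO 1 to 5 and 2390, 1720, 1132, 1570 and 1463 CPM in CTRL 1 to 5. Only CTRL 1 lay within the ASO range. The log2 fold change was 0.67 ± 0.20 (edgeR adjusted p = 0.0273), and it lost its call without ASO 3, ASO 5, CTRL 4 or CTRL 5, with 0.56 to 0.84 over all single omissions and an adjusted p of up to 0.0686. Cox5b-ps is a copy of Cox5b with a pseudogene suffix in its symbol. It had 12.6, 11.9, 22.8, 17.5 and 14.6 CPM in ASO 1 to 5 and 9.90, 11.2, 4.45, 5.31 and 7.30 CPM in CTRL 1 to 5. All ASO libraries were above all CTRL libraries, with 9 to 54 counts per library. Its log2 fold change of 1.04 ± 0.30 (edgeR adjusted p = 0.0197) is uncertain, because reads of near-identical copies can be split between them. Without CTRL 4 the value was 0.94 and its adjusted p was 0.0528.

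Cox7a2l encodes a factor of the supercomplex of complexes III and IV. It had 6.28, 12.3, 3.38, 10.9 and 9.90 CPM in ASO 1 to 5 and 16.5, 13.1, 22.7, 17.7 and 12.4 CPM in CTRL 1 to 5, from 8 to 46 counts per library. The groups do not overlap, although ASO 2 and CTRL 5 are nearly level. The estimated log2 change was −0.94 ± 0.32 (edgeR adjusted p = 0.0447), and only 16 bases of its counted segment are shared with no other segment. It passed only without ASO 2, CTRL 2 or CTRL 5 among the single omissions, with −1.09 to −0.70 and an adjusted p of up to 0.112, and DESeq2 gave an adjusted p of 0.0517. Cox4i1, Cox7b, Cox5a and Cox7a2 did not pass, with log2 fold changes of 0.41, 0.32, −0.27 and −0.01. Cox5a lies within exons of the transcript Gm26631 on the opposite strand.

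**Figure D2:**
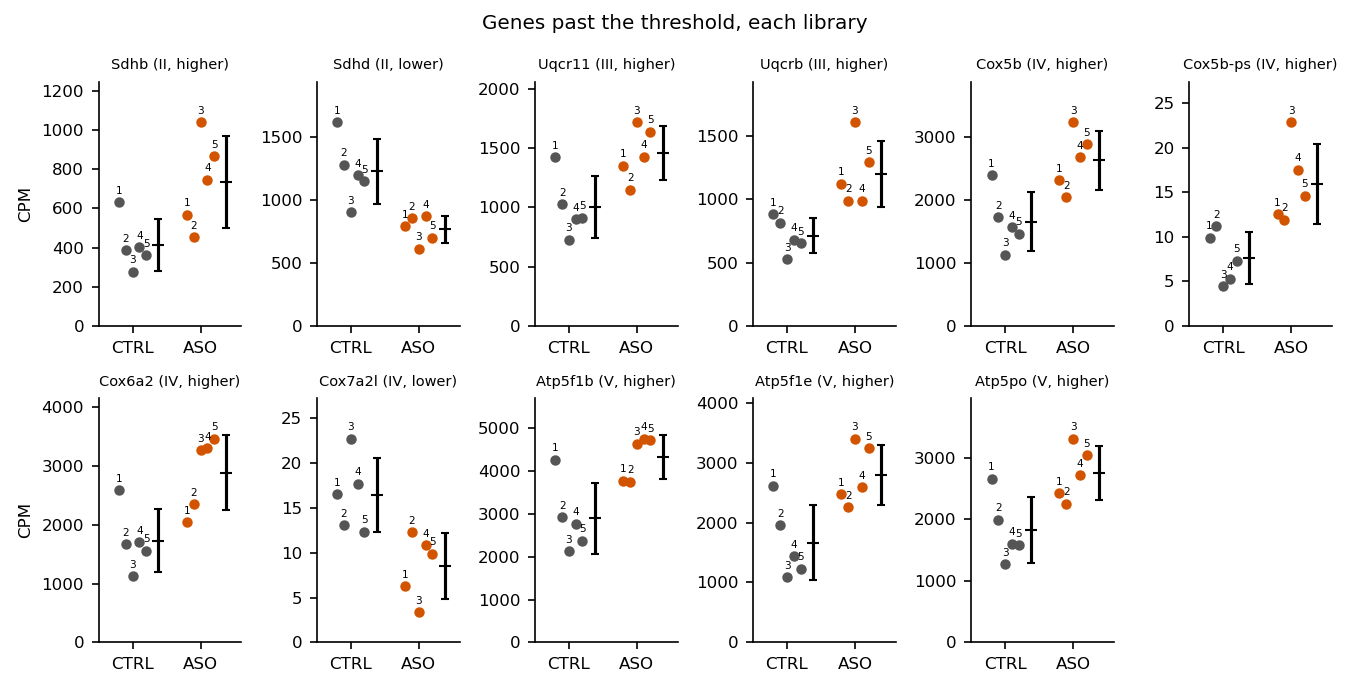
Level in CPM (y axis, from 0) of the 11 genes past the threshold in each CTRL and ASO library, with the replicate number beside each point and the mean with SD bars to the right of each group, n = 5. CTRL 1 lies within the ASO range for Sdhb, Uqcr11, Cox5b, Cox6a2, Atp5f1b, Atp5f1e and Atp5po, and the groups do not overlap for Sdhd, Uqcrb, Cox5b-ps and Cox7a2l.

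The isoforms of complex IV were compared within each library, since a ratio of counts from 1 library does not depend on its scaling. The part of the length and position of the counted segments in these ratios was not tested. Of 4 pairs of a muscle or lung isoform with a more widely expressed one, 2 had at least 10 counts on average for both genes, and neither ratio passed the test. Cox6a1, the widely expressed partner of Cox6a2, had 189, 129, 187, 210 and 135 CPM in ASO 1 to 5 and 120, 132, 401, 142 and 123 CPM in CTRL 1 to 5. CTRL 3 was the highest library by far, and the others overlapped. The log2 ratio of Cox6a2 to Cox6a1 counts was 3.43, 4.18, 4.12, 3.97 and 4.67 in ASO 1 to 5 and 4.43, 3.66, 1.48, 3.58 and 3.67 in CTRL 1 to 5. CTRL 3 lay far below all the rest, and the other 4 CTRL libraries lay within the ASO range. The mean was 4.08 ± 0.45 (SD, n = 5) with the ASO and 3.36 ± 1.11 in CTRL, a difference of 0.71 (exact permutation test, two-sided p = 0.198, adjusted over the 2 pairs 0.198). Without CTRL 3 the difference was 0.24.

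Cox8b, the muscle isoform of subunit VIII, had 1093, 1090, 1657, 1300 and 1558 CPM in ASO 1 to 5 and 1367, 919, 523, 755 and 713 CPM in CTRL 1 to 5. CTRL 1 lay within the ASO range and the other CTRL libraries below it. Its log2 fold change of 0.65 ± 0.24 did not pass the test (edgeR adjusted p = 0.0580), passed with DESeq2 (0.0252) and limma-voom (0.0401), and is based on a segment of 43 bp. Cox8a, the widely expressed partner, had 159, 123, 119, 169 and 98.1 CPM in ASO 1 to 5 and 148, 115, 399, 139 and 125 CPM in CTRL 1 to 5. Again CTRL 3 alone was high. Cox8a was counted on 500 bp, 290 coding and 210 intronic, that end 45 bp from the canonical 3′ end. The segment of Cox8b ends 1789 bp from its own canonical end. The log2 ratio of Cox8b to Cox8a was 2.78, 3.15, 3.8, 2.94 and 3.99 in ASO 1 to 5 and 3.20, 3.0, 0.39, 2.44 and 2.51 in CTRL 1 to 5. CTRL 1 and CTRL 2 lay among the ASO libraries. The mean was 3.33 ± 0.53 (SD, n = 5) with the ASO and 2.31 ± 1.12 in CTRL, a difference of 1.02 (exact permutation test, two-sided p = 0.0714, adjusted 0.143), and without CTRL 3 it was 0.54. Cox6a1 and Cox8a had log2 fold changes of −0.11 and −0.47 with all libraries and of 0.40 and 0.02 without CTRL 3. The part of the adipocyte transcripts of CTRL 3 in these values was not tested.

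**Figure D3:**
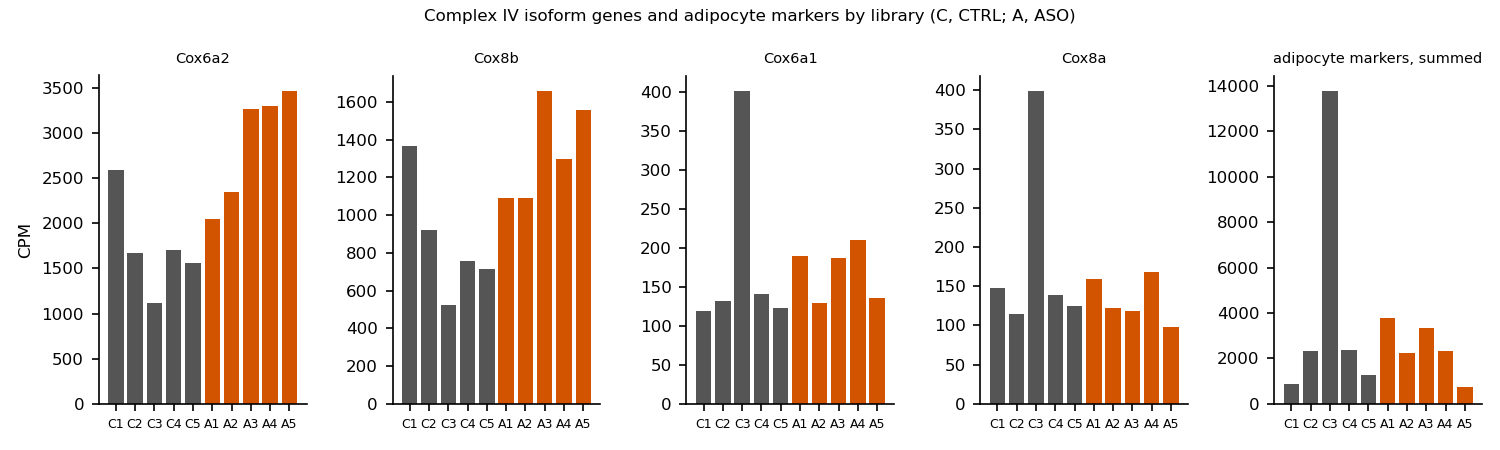
Level in CPM (y axes, from 0) of the muscle isoform genes Cox6a2 and Cox8b, the widely expressed isoform genes Cox6a1 and Cox8a, and the sum of 9 adipocyte markers in the libraries CTRL 1 to 5 (C1 to C5) and ASO 1 to 5 (A1 to A5). CTRL 3 has the highest bars for Cox6a1 (401), Cox8a (399) and the adipocyte markers (13760) and the lowest for Cox6a2 (1121) and Cox8b (523).

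Isoform genes known from testis had counts in CTRL libraries with spermatid transcripts. Cox8c had 22 counts in CTRL 5, 3 in CTRL 4 and 0 in all others. Cox6b2 had 22 counts in CTRL 5 and between 0 and 5 in the other libraries, and Cox7b2 had 3 counts in CTRL 4, 2 in CTRL 5 and 0 elsewhere. These genes were below the filter and were not tested. The source of these transcripts was not tested.

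In complex V, Atp5f1b, Atp5f1e and Atp5po rose, no member fell, and the median log2 fold change over 9 tested members was 0.27. Atp5f1b encodes the catalytic beta subunit, Atp5f1e the epsilon subunit of the central stalk, and Atp5po the peripheral stalk subunit known as OSCP. Atp5f1b had 3775, 3753, 4637, 4755 and 4723 CPM in ASO 1 to 5 and 4268, 2929, 2130, 2776 and 2375 CPM in CTRL 1 to 5. CTRL 1 lay within the ASO range and all other CTRL libraries below it. Its log2 fold change was 0.58 ± 0.20 (SE), 1.5-fold, with an edgeR adjusted p of 0.0406.

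Atp5f1e had 2476, 2255, 3398, 2590 and 3241 CPM in ASO 1 to 5 and 2617, 1953, 1084, 1438 and 1233 CPM in CTRL 1 to 5. The groups again overlapped only through CTRL 1. The log2 fold change was 0.75 ± 0.24 (SE), 1.68-fold, with an edgeR adjusted p of 0.0333. Atp5po had 2426, 2253, 3306, 2719 and 3043 CPM in ASO 1 to 5 and 2659, 1990, 1272, 1604 and 1582 CPM in CTRL 1 to 5. CTRL 1 was above ASO 1 and ASO 2, and no other CTRL library reached an ASO library. The fitted log2 fold change was 0.59 ± 0.20 (SE), 1.51-fold, with an edgeR adjusted p of 0.0437.

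The complex V calls depended on single libraries. All of them were lost without ASO 3, ASO 5, CTRL 3, CTRL 4 or CTRL 5, those of Atp5f1b and Atp5po also without ASO 4 or CTRL 2, with log2 fold changes of 0.49 to 0.76 (Atp5f1b), 0.62 to 0.97 (Atp5f1e) and 0.49 to 0.77 (Atp5po) over all single omissions and adjusted p-values of up to 0.105. The alpha subunit gene Atp5f1a was at 0.04 ± 0.18 (edgeR adjusted p = 0.876), beside 0.58 for its partner Atp5f1b. Atp5mf and Atp5f1d were at 0.36 and 0.27, and Atp5mk, Atp5pb and the c subunit gene Atp5mc1 were at −0.02, −0.29 and −0.34, none past the threshold. Of the counts of Atp5mc1, 5 to 24 per library, 99.3% lie on a segment wholly outside its canonical transcript, beyond the 3′ end. Atp5mk lies within exons of Taf5 on the opposite strand.

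The summed level of all members was 35550 to 44930 CPM in the ASO libraries and 25150 to 47100 CPM in CTRL, and CTRL 1 held the highest and CTRL 3 the lowest of all 10. For complex II alone the ASO libraries lay between 4313 and 4543 CPM and the CTRL libraries between 3908 and 6654 CPM. For complex V they lay between 12690 and 16370 CPM with the ASO and between 7763 and 15870 CPM in CTRL. The groups thus overlapped in all of these sums.

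Segments were also fitted one by one and set against their distance from the canonical 3′ end. Taken so, 12 of 37 tested member segments were higher and 6 were lower, against 16% and 24.7% of all 10652 tested segments. Segments that end within 100 bp of the canonical 3′ end had a median log2 fold change of 0.30 over all 4393 tested and 0.32 over 19 of the members. From more than 500 up to 2000 bp the medians were −0.32 over all and 0.01 over 7 of the members, and beyond 2000 bp they were −0.82 and −0.10. Near the 3′ end, 24.7% of all segments were higher and 4.44% lower, and of the 19 member segments 7 were higher and 2 lower.

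Segments far from the end also rose, such as those of Sdhb (0.88, 2876 bp from it), Uqcr11 (0.59, 2289 bp) and Atp5po (0.64, 1792 bp), and the segment of Sdhd 15 bp from the end fell. Of the 5 members with more than 1 tested segment, Uqcrc1 and Cyc1 had segments of opposite sign, and Sdha, Atp5mf and Cox5b kept 1 sign. The segment of Uqcrc1 at its 3′ end, 124 bp on GRCm39 at chr9:108778568-108778691 in the 3′UTR, rose by 1.04 ± 0.25 (edgeR adjusted p = 0.00538). The segments that end 4613 and 4919 bp upstream, which hold mostly intron and coding bases of the canonical transcript, fell by 0.91 and 1.18 on the log2 scale. For Cyc1, the segment at chr15:76229961-76230460, the end of the 3′UTR, was at 0.55 ± 0.21 (edgeR adjusted p = 0.0504), and the segment 1109 bp upstream, with 314 coding and 186 intronic bases, fell by 0.89 ± 0.19 (adjusted p = 0.00255). The sum over the gene, −0.41, is a mixture of these. For Sdha, a 500 bp segment that ends 136 bp from the 3′ end was at −0.08, and a 21 bp segment that ends 948 bp from it fell by 1.00 ± 0.20 (adjusted p = 0.00171). Atp5mf rose at its 3′ end (0.68 ± 0.21, adjusted p = 0.0199) and was at 0.36 on its upstream segment. Cox5b went the other way, with 0.72 on the segment 295 bp upstream, which holds 99.3% of its counts, and 0.32 ± 0.36 on the segment at the 3′ end.

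**Figure D4:**
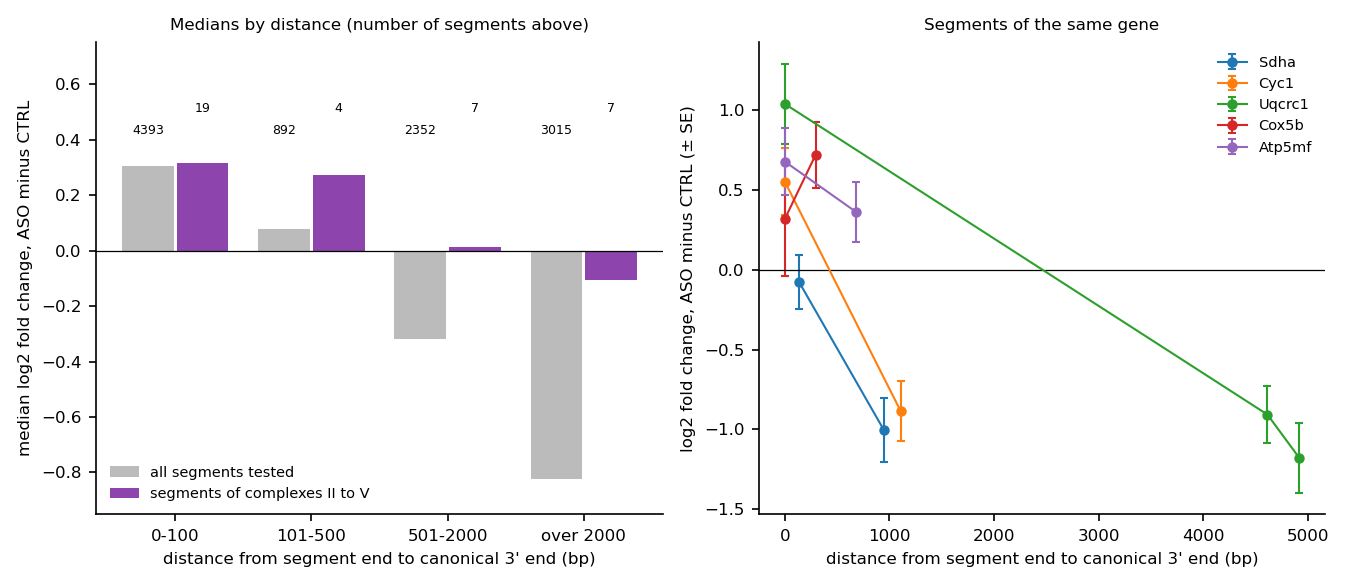
Left, median log2 fold change (ASO minus CTRL, bars) of all tested segments and of segments of complexes II to V by the distance in bp from the segment's end to the canonical 3′ end, with the number of segments above. Right, log2 fold change with standard errors of the segments of 5 genes against that distance. All segments fall from 0.30 near the end to −0.82 beyond 2000 bp, and Uqcrc1 goes from 1.04 at its end to −1.18.

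When the fit was limited to segments that end within 100 bp of the canonical 3′ end, 19 members could be tested, none was higher, and Sdhd (−0.95) and Cox7a2l (−1.22) were lower. Before adjustment, 5 members were higher at an edgeR p under 0.05 and 4 lower. That fit set TMM factors anew, so its values are not on the centre of the fit of all segments. In that fit 196 of 4412 genes of the whole table were higher and 289 lower. Uqcrc1 was then at 0.70 ± 0.21 (adjusted p = 0.0540), Cyc1 at 0.22 and Cox5b at −0.01. Counted length moved with the fold change as well. Of 12 members counted on up to 300 bp, 5 were higher and none lower (all genes of that length, 26.7% higher and 13.5% lower), and of 19 counted on more than 300 bp, 4 were higher and 2 lower (all genes, 9.75% and 18%). Counted length includes intron. The 4 higher members over 300 bp are Uqcr11, Cox5b, Atp5f1e and Atp5po. The 500 bp segments with most or all of their counts held 341, 310, 350 and 242 bases of canonical intron. Those of Cox4i1 and Cox5a, without a call, held 425 and 355. Why position and length moved with treatment was not tested.

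The closest group outside the rule is given for reference, 39 genes with the symbols Ndufa, Ndufb, Ndufc, Ndufs or Ndufv and a number. They were taken as complex I subunits by symbol alone, including Ndufa4l2 (0.17, no call) and Ndufa4, which was not tested. Of 29 tested, 18 were higher (62.1%) and 2 lower (6.9%), with a median log2 fold change of 0.64. Of the 18 higher calls, 11 were kept in all single omissions and 7 were lost in some, and without CTRL 3, 4 and 5 none of the 18 passed (lowest edgeR adjusted p = 0.0913). Among the 29 tested are Ndufa12 at 1.00 and Ndufb7 at 1.03, both higher, and Ndufa9 at −2.41, lower. Ndufa12 and Ndufb7 were counted on 87.4 and 61 bp, against a median of 476.9 bp over the 29. Of all genes counted on more than 50 and up to 100 bp, 43.4% were higher, with a median log2 fold change of 0.65. The part of counted length in the complex I calls was not tested. Ndufa9 had few counts, 2 to 7 in the ASO libraries and 17 to 27 in CTRL. Without CTRL 3, 4 and 5 its edgeR adjusted p was 0.0502. The difference between complex I and the other complexes was not tested.

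Genes needed to build or serve the complexes were described from fixed lists. Of the 20 tested assembly factors of complex IV, 2 were higher (10%) and 4 lower (20%), near the 11.8% and 17.4% of all tested genes, with a median of 0.12. Taco1, the translational activator of the mitochondrially encoded subunit COX1, fell by 3.18 ± 0.27 on the log2 scale (edgeR adjusted p = 0.000111), with 14 to 39 counts in the ASO libraries and 173 to 305 in CTRL. The groups were far apart, and the call held without CTRL 3, 4 and 5 (−2.86, adjusted p = 0.00386). Taco1 was counted on 311 bp of 3′UTR that end at the canonical 3′ end. Pet117 fell by 2.65 ± 0.30 (adjusted p = 0.000137), with 6 to 15 counts with the ASO and 41 to 74 in CTRL, and it too was kept without those 3 libraries (−2.19, adjusted p = 0.0126). Cox17, a copper chaperone, was at −2.39, but 47 of its ASO counts and 236 of its CTRL counts lie on a segment that ends 9553 bp beyond its canonical transcript. Cox18, which inserts the tail of COX2, fell by 1.01 and kept its call only in 3 of 10 single omissions. Cox20 and Pet100 rose by 1.08 ± 0.23 and 0.69 ± 0.18 (adjusted p = 0.00477 and 0.0117), and neither passed without CTRL 3, 4 and 5 (0.115 and 0.214).

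Of 5 tested assembly factors of complex III, Uqcc1 fell by 1.11 ± 0.19 (adjusted p = 0.00148) and Uqcc3 rose by 0.61 ± 0.18 (adjusted p = 0.0250), and without CTRL 3, 4 and 5 their adjusted p-values were 0.0505 and 0.270. None of 4 tested assembly factors of complex II and none of 6 of complex V passed edgeR's threshold, with log2 fold changes of −0.95 to 0.31 and of −0.27 to 0.44. In coenzyme Q synthesis, Coq8a (−0.94), Coq10a (−0.77) and Coq6 (−0.64) of 12 tested genes fell (25%, all tested genes 17.4%). Coq10a kept its call in all single omissions, Coq8a in 5 and Coq6 in 4 of 10, and all 3 lost it without CTRL 3, 4 and 5 (edgeR adjusted p of 0.104, 0.0785 and 0.150). Coq8a had 815 against 931 CPM on the segment 1781 bp from the 3′ end, 0.876-fold with the ASO, and 14.9 against 160 CPM on the segment 13904 bp away, 0.0932-fold. The ratio was thus lower on the farther segment. Coq6 had segments of opposite direction. On the segment 4 bp from the 3′ end it had 8.43 against 6.10 CPM, 1.38-fold with the ASO. On the segment 2765 bp away it had 8.71 against 20.7 CPM, 0.422-fold. The −0.64 of Coq6 is the value of their sum. Of 7 genes for ATP and phosphate exchange, the porin gene Vdac2 rose by 0.47 (adjusted p = 0.0471), on a segment outside its canonical transcript that ends 642 bp beyond it. This call was lost in 7 of 10 single omissions (adjusted p up to 0.106) and without CTRL 3, 4 and 5 (0.368). The muscle ADP/ATP carrier gene Slc25a4 was at 0.60 (adjusted p = 0.0688). Cytochrome c itself (Cycs and Cyct) had 1 to 6 counts per library and was not tested.

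**Figure D5:**
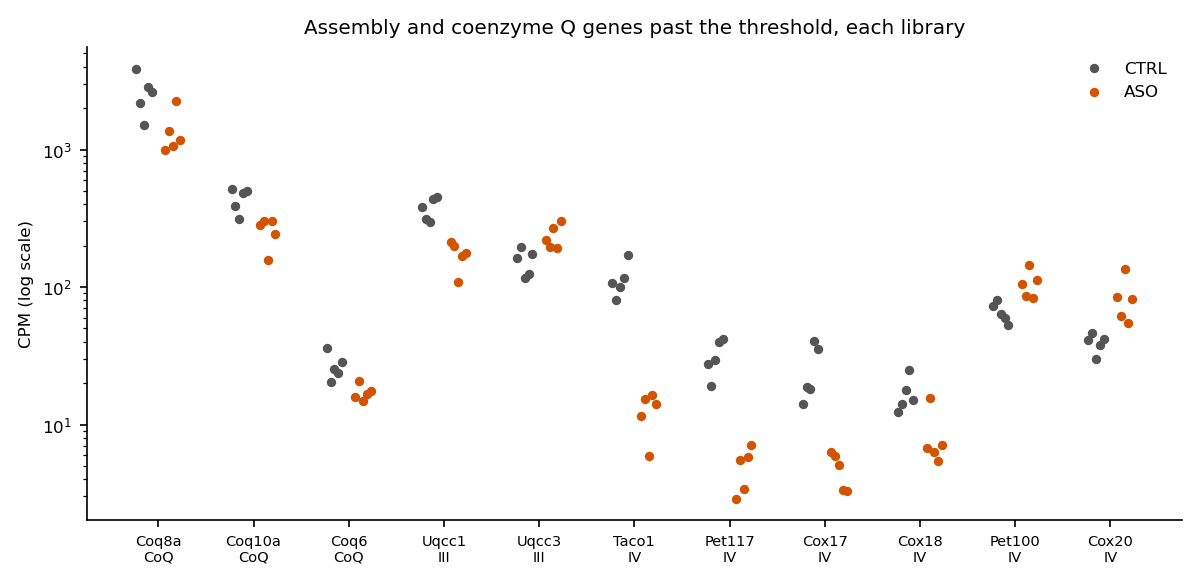
Level in CPM (y axis, log scale) in each CTRL and ASO library (points, 5 per group) of the genes past the threshold for coenzyme Q synthesis (CoQ) and the assembly of complexes III and IV. Taco1 and Pet117 show the widest gaps, with means of 12.7 and 4.94 CPM with the ASO and 115 and 31.6 CPM in CTRL.

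Promoters were searched for motifs of factors known for respiratory genes, on both strands. The RefSeq windows hold 250 bases before to 50 after each start on GRCm38.p6, and 35 of the 50 members had one. All genes here means the 27025 with a window, whether tested or not, and expression was not matched. The motif GCGCANGCG of NRF1 was in 12 of 35 (34.3%, all genes 7.03%), CCGGAAG of GABP and other ETS factors in 12 (34.3%, all genes 9.93%), AAGGTCA of estrogen-related receptors in 5 (14.3%, all genes 5.38%), and AAGATGGC of YY1 in 3 (8.57%, all genes 3.19%). NRF1 matches on both strands often overlap, since this motif is close to its own reverse complement, and a promoter was counted once. Among the 6 higher members with a window, 2 had the NRF1 motif and 3 the ETS motif. The windows of the lower gene Sdhd and of the higher genes Uqcr11 and Atp5f1e are shown because all 3 hold at least 2 of the motifs, which are in capitals. They lie at chr9:50603800-50604099 (Sdhd, minus strand), chr10:80406772-80407071 (Uqcr11, minus strand) and chr2:174464052-174464351 (Atp5f1e, listed as Atp5e, minus strand).

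Sdhd: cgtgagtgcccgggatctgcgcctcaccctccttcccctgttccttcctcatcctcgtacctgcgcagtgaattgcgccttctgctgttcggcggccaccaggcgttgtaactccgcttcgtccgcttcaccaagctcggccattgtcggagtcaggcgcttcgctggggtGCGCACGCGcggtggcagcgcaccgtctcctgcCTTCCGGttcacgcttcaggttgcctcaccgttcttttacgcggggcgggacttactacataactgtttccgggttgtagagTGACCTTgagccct

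Uqcr11: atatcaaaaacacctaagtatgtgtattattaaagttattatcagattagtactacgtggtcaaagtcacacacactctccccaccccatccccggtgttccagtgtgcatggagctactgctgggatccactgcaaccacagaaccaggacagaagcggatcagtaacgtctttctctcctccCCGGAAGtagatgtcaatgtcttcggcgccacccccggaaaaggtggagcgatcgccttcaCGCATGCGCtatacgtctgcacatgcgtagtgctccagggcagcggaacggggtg

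Atp5f1e: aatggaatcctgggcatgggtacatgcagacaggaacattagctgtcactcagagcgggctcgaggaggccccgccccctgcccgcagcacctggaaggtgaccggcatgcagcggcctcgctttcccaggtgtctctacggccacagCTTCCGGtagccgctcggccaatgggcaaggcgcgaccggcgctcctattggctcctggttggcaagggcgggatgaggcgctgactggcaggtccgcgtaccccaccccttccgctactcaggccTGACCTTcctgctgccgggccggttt

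Sdhd holds 1 match each for NRF1, ETS and the estrogen-related receptors, Uqcr11 1 each for NRF1 and ETS, and Atp5f1e 1 each for ETS and the estrogen-related receptors. A higher and a lower gene thus share motifs, and a match is a description of the letters in the window.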

How the data were processed

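Per the methods and labels, the authors used fastp for trimming, STAR for alignment on GRCm39 and featureCounts with Gencode annotation for read pairs, and kept at most 500 bp at the end of each 3′UTR. Versions of STAR and featureCounts and the strand setting are not given in the sources used here. The deposited table holds unnormalized counts for each transcript segment. Of 52423 segments, 62 (0.0197% of the counts) did not match GENCODE M39 and were left out, and 4 per-sample columns were not used.

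Segments were summed per gene and assigned to symbols. Genes were tested with edgeR 4.0.16 (TMM scaling, filter on low counts by group, quasi-likelihood test, Benjamini-Hochberg adjustment over all tested genes, threshold 0.05), as were single segments. Isoform ratios, with 0.5 added to each count, were compared by two-sided exact permutation over 252 labellings. DESeq2 1.42.0, limma-voom (limma 3.58.1), other scalings and filters, the most distal segment, down-sampling, the replicate block and leaving out each library were alternatives, and fits with a segment length offset, without CTRL 3, 4 and 5 or with 3′-end segments only were added after seeing the data. Procedures were tested on simulated data. Members and lists were chosen with earlier results of these data known. Library totals, given with the results, limit the precision, and p-values measure the spread between mice sequenced once. Values in every library are given for members past the threshold, isoform genes of a tested pair and the member with the highest mean count of each complex, and up to 6 genes past the threshold per related list could be named. Figures were drawn with matplotlib 3.10.9 in Python 3.11.15.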

Additional observations from a re-analysis of the deposited data

Results flagged for a closer look

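Among 74 sets of 5 libraries (31 members, 4 complex sums and 2 isoform ratios in each group), 5 held a library that lay far from the other 4 by Dixon's ratio, and chance marks about 1 set in 20. Of these, 4 concern CTRL 3, the library with the highest adipocyte markers (13760 CPM summed, elsewhere 733 to 3764). Cox6a1 was at 401 CPM in CTRL 3 and at most 142 CPM in the other CTRL libraries. Cox8a was at 399 CPM in CTRL 3 and at most 148 CPM in the others. The log2 ratio of Cox6a2 to Cox6a1 was 1.48 in CTRL 3, with the next lowest at 3.58. The log2 ratio of Cox8b to Cox8a was 0.39 there, with the next lowest at 2.44. The part of adipocyte RNA in these values was not tested. The remaining one is Uqcrc2 in ASO 3, at 1059 CPM, with the next highest ASO library at 753 CPM, and that gene overlaps Pdzd9 on the opposite strand.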

How the results depend on the processing

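The number of higher members was 9 and ranged from 1 to 12 when single libraries were left out, and that of lower members was 2 and ranged from 1 to 3. Total counts in place of TMM gave 2 higher and 4 lower members and moved the median of all genes to −0.21. The most distal segment alone gave 0 higher and 1 lower with 21 members tested, segments at the canonical 3′ end 0 higher with 19 tested, the length offset 4 higher, and leaving out CTRL 3, 4 and 5 gave 0 higher and 1 lower. At an unadjusted edgeR p under 0.05, 6 members were higher and 3 lower on the most distal segment, 5 and 4 at the canonical 3′ end, and 1 and 6 without those 3 libraries, against 11 and 4 with all libraries and segments. One lower member was left with RLE size factors, upper quartile, without the 20 genes of highest mean, without a filter, with at least 10 counts in every library and after down-sampling. In the fit with a replicate block, 1 member was higher and 1 lower, but the replicate numbers did not pair the mice (correlations of same-numbered deviations −0.43 to 0.16), and the best partner of each ASO library had another number. With the block as a sign-flip test the isoform ratios had adjusted p-values of 0.313, where 5 pairs cannot go below a raw 0.0625.

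The median log2 fold change of complex IV, 0.32, was −0.070 with DESeq2 and −0.079 without a filter, which both tested 17 members, 0.0071 on the most distal segments and −0.29 at the canonical 3′ end. That of complex II was −0.95 at the canonical 3′ end, where 1 member was tested, and that of complex III −0.17 without CTRL 3, 4 and 5. Medians without single libraries were −0.34 to −0.17 (II), −0.01 to 0.27 (III), 0.23 to 0.48 (IV) and 0.19 to 0.39 (V). Cox6a1 turned from −0.11 to 0.049 with limma-voom, 0.054 with the block, 0.40 without CTRL 3 and 0.46 without CTRL 3, 4 and 5, and Cox8a from −0.47 to 0.016 and 0.050 in the latter 2 (without single libraries, Cox6a1 −0.22 to 0.40 and Cox8a −0.60 to 0.016). Cyc1 turned from −0.41 to 0.21 on the most distal and 0.22 on canonical 3′-end segments, and Cox5b from 0.67 to −0.017 and −0.012. For both genes these fits leave out the upstream segment and set TMM factors anew, and in the fit of all segments the same 3′-end segments were at 0.55 (Cyc1) and 0.32 (Cox5b). Other causes were not tested. The Cox8b to Cox8a ratio could not be computed on the most distal segments. Members with few counts were below the filter in libraries of 1606909 to 2632560 counts. For some of them the counted segments share most bases with others or lie outside the canonical exons.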
